A study of Mus with 21 samples.

Results

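The neurexins and neuroligins described here are 5 genes, *Nrxn2*, *Nrxn3*, *Nlgn1*, *Nlgn2* and *Nlgn3*, taken by gene name from a table of RNA-seq counts that lists 55335 genes. They were measured in whole brains of female mouse embryos at E17.5, a late fetal stage, with 1 library for each brain, and all 5 were among the 30552 genes tested. The 21 libraries came from 5 WT embryos, 3 Nipbl+/- embryos, 7 WaplΔ/+ embryos and 6 double heterozygotes that carried both mutations. The study asked how far a lower dose of WAPL, which removes cohesin from chromatin, offsets the loss of a copy of *Nipbl*, which encodes the factor that loads cohesin. WT embryos carried a pair of normal copies of *Wapl* and of *Nipbl*. The WaplΔ allele lacks the promoter and exons 1 and 2, and was made from a floxed allele with the *E2a-Cre* transgene and backcrossed to C57BL/6J. The *Nipbl* mutation came from a floxed allele recombined by the *Stra8-icre* transgene in the germ line of the sires, so that embryos inherited it in all cells. Group names in the sample labels give the mutant alleles as delta, and the litter of each embryo is not given in the sources used here.

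Neurexins are adhesion proteins of the presynaptic membrane. Across the synaptic cleft they bind neuroligins, which sit in the postsynaptic membrane and bind scaffold proteins inside the cell, and a set of other membrane and secreted partners. Both families are already transcribed in the neurons of the embryonic mouse brain, where most synapses have yet to mature.

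In GRCm38, *Nrxn3* spans chromosome 12 from 88722701 to 90334935, and *Nlgn1* spans chromosome 3 from 25421808 to 26332866. Those spans of 1612 kb and 911 kb put *Nrxn3* at percentile 99.9 and *Nlgn1* at percentile 99.6 of genomic span among 17297 tested protein-coding genes, whose median was 22.6 kb. The other members are shorter. *Nrxn2* lies on chromosome 19 from 6418756 to 6533217 (114 kb), *Nlgn2* on chromosome 11 from 69823123 to 69837784 (14.7 kb), and *Nlgn3* on chromosome X from 101299179 to 101321350 (22.2 kb). Counts were summed over whole genes, so isoforms were not separated. In the reference table, *Nrxn2* overlaps the long noncoding genes *Gm14965* and *Gm52381*, *Nrxn3* overlaps *Gm40537*, and *Nlgn1* overlaps the pseudogene *Gm6197* and the noncoding gene *A830092H15Rik*. The highest count of any of these that is matched in the table was 195, for *A830092H15Rik*, where *Nlgn1* had between 1249 and 1992 counts per library. The strand setting of the counting is not stated, so reads from overlapping genes may not be told apart.

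Total counts on genes ran from 25682566 to 35818767 per library. *Nipbl* stood at 55.2% ± 4.25 of WT (SD, n = 3) in Nipbl+/- brains and at 55.4% ± 1.80 (SD, n = 6) in double heterozygotes, and *Wapl* stood at 47.2% ± 4.42 (SD, n = 7) and 49.9% ± 1.75 (SD, n = 6) of WT in the brains labelled with its deletion. A mitochondrial gene, *mt-Nd3*, splits the libraries into 9 with 52 to 106 counts (the high set) and 12 with 0 to 6 counts (the low set). All 3 Nipbl+/- libraries have low *mt-Nd3*, as do 3 of 5 WT, 2 of 7 WaplΔ/+ and 4 of 6 double-heterozygote libraries. Among embryos with the *Wapl* deletion, these sets follow the order in which the labels write the alleles. No pair of libraries of 1 group agreed within sampling noise. Fewer cells of a type and less RNA per cell cannot be told apart in whole brain. All mutant groups were compared with the same 5 WT libraries.

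Levels are given as CPM, the counts on a gene scaled to a common library size with TMM factors over all 21 libraries. Differences are log2 fold changes, with the first named group above the fraction line, from edgeR's quasi-likelihood test on the libraries of the compared groups, whose scaling is set on those libraries alone. A difference was called when its *P* value, adjusted by Benjamini-Hochberg over all genes tested, was below 0.10. *Nrxn3* and *Nlgn1* were lower than WT in both single heterozygotes, *Nlgn3* was lower in WaplΔ/+ brains, and no member was called in double heterozygotes. *Nrxn2* and *Nlgn2* passed the test in none of these comparisons.

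**Figure D1:**
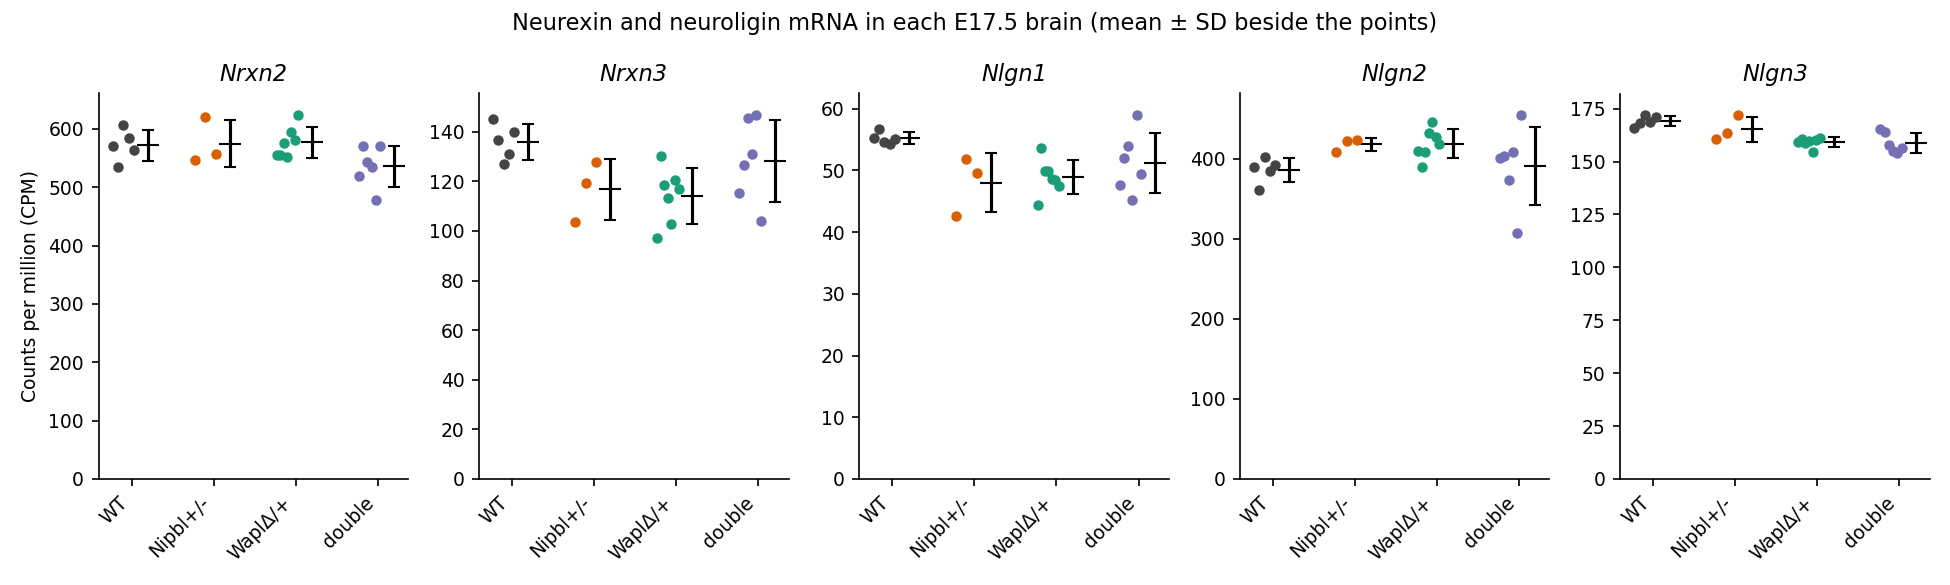
CPM of the 5 genes (vertical axes, from 0) in each library, with points coloured by genotype and the mean ± SD of each group as the bar beside them. For *Nlgn1*, all 3 Nipbl+/- and all 7 WaplΔ/+ points lie under the WT points, while for *Nlgn2* the 6 double-heterozygote points run from 307 to 454 CPM.

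*Nrxn3*, a presynaptic neurexin, had 145 CPM, 137 CPM, 127 CPM, 131 CPM and 139.7 CPM in WT replicates 1 to 5. In Nipbl+/- replicates 1 to 3 it had 104 CPM, 119 CPM and 128 CPM. The 7 WaplΔ/+ libraries ran from 97.0 CPM (replicate 1) through a median of 117 CPM to 130.4 CPM (replicate 2). Both mutant groups overlapped WT, each through its highest library, which lay above WT replicate 3. The 6 double-heterozygote libraries ran from 104 CPM (replicate 6) through a median of 129 CPM to 147 CPM (replicate 5), so that they covered the whole WT range and lay both below and above it. In order of the mean, WT (136 ± 7.13 CPM, SD, n = 5) was followed by double heterozygotes (128 ± 16.7 CPM, SD, n = 6), Nipbl+/- brains (117 ± 12.2 CPM, SD, n = 3) and WaplΔ/+ brains (114 ± 11.2 CPM, SD, n = 7). No neighbours in that order differed past the threshold. *Nrxn3* was lower in Nipbl+/- than in WT brains, by -0.25 on the log2 scale (standard error 0.0596, adjusted *P* = 0.0147). In WaplΔ/+ brains it was lower by a like size, at -0.26 (standard error 0.0569, adjusted *P* = 0.0425). The double heterozygotes gave -0.09 (95% interval -0.24 to 0.06, adjusted *P* = 0.663), which includes no difference as well as a decrease near that of the single heterozygotes.

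*Nrxn2*, the other neurexin measured, had 571 CPM, 534 CPM, 606 CPM, 584 CPM and 563 CPM in WT replicates 1 to 5, and 547 CPM, 621 CPM and 557 CPM in Nipbl+/- replicates 1 to 3. The WaplΔ/+ libraries ran from 551 CPM through a median of 576 CPM to 623 CPM. Double heterozygotes ran from 478 CPM (replicate 5) through a median of 539 CPM to 571 CPM. All groups overlapped, and no comparison of 2 groups was called. Their means were 577 ± 25.9 CPM (SD, n = 7) in WaplΔ/+ brains, 575 ± 40.1 CPM (SD, n = 3) in Nipbl+/- brains, 572 ± 26.4 CPM (SD, n = 5) in WT and 536 ± 35.0 CPM (SD, n = 6) in double heterozygotes. The log2 fold change of *Nrxn2* against WT was -0.02 (95% interval -0.12 to 0.08, adjusted *P* = 0.865) in Nipbl+/- brains and 0.00044 (95% interval -0.07 to 0.08, adjusted *P* = 0.997) in WaplΔ/+ brains, with a sign that changed under other settings in each case. In double heterozygotes it was -0.10 (95% interval -0.20 to -0.00054, unadjusted *P* = 0.0489, adjusted *P* = 0.366).

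*Nlgn1*, the neuroligin best known from glutamatergic synapses, had 55.2 CPM, 56.8 CPM, 54.6 CPM, 54.2 CPM and 55.1 CPM in WT replicates 1 to 5. Nipbl+/- replicates 1 to 3 had 42.6 CPM, 51.9 CPM and 49.5 CPM. The WaplΔ/+ libraries ran from 44.5 CPM (replicate 1) through a median of 48.6 CPM to 53.7 CPM (replicate 2). No library of either single heterozygote reached the lowest WT library. Double heterozygotes ran from 45.2 CPM (replicate 4) through a median of 50.7 CPM to 58.9 CPM (replicate 5), and 5 of the 6 lay under every WT library. The order of the means was WT (55.2 ± 0.963 CPM, SD, n = 5), double heterozygotes (51.2 ± 4.92 CPM, SD, n = 6), WaplΔ/+ (49.0 ± 2.79 CPM, SD, n = 7) and Nipbl+/- (48.0 ± 4.83 CPM, SD, n = 3), with no neighbours apart by the test. *Nlgn1* was lower than WT in Nipbl+/- brains (log2 fold change -0.23, standard error 0.0541, adjusted *P* = 0.0126) and in WaplΔ/+ brains (log2 fold change -0.18, standard error 0.0397, adjusted *P* = 0.0402). For double heterozygotes the log2 fold change was -0.11 (95% interval -0.23 to 0.0028, adjusted *P* = 0.386). Without double-heterozygote replicate 5 it was -0.16 and was called (adjusted *P* = 0.0365). That fit called 2504 genes in all (8.2%), beside 1001 (3.28%) with every library.

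*Nlgn2*, the neuroligin of inhibitory synapses, had 389 CPM, 361 CPM, 402 CPM, 384 CPM and 392 CPM in WT replicates 1 to 5. Nipbl+/- replicates 1 to 3 had 409 CPM, 422 CPM and 423 CPM, all above the highest WT library. WaplΔ/+ libraries ran from 389 CPM through a median of 418 CPM to 445 CPM, and 6 of the 7 lay above all WT libraries. Double heterozygotes were spread most widely, from 307 CPM (replicate 5) through a median of 402 CPM to 454 CPM (replicate 6). Group means were 419 ± 18.2 CPM (SD, n = 7) in WaplΔ/+, 418 ± 8.13 CPM (SD, n = 3) in Nipbl+/-, 391 ± 48.7 CPM (SD, n = 6) in double-heterozygote and 386 ± 15.2 CPM (SD, n = 5) in WT brains. No neighbours in this order differed past the threshold, nor did either single heterozygote from WT. Its log2 fold change against WT was 0.09 (95% interval 0.0052 to 0.17, adjusted *P* = 0.213) in Nipbl+/- brains and 0.10 (95% interval 0.03 to 0.18, adjusted *P* = 0.150) in WaplΔ/+ brains, whereas DESeq2 called both (adjusted *P* = 0.0878 and 0.0807). In double heterozygotes it was 0.01 (95% interval -0.12 to 0.15, adjusted *P* = 0.964), with a sign that changed when single libraries were left out.

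*Nlgn3*, an X-linked neuroligin found at both kinds of synapse, had 166 CPM, 168 CPM, 172 CPM, 169 CPM and 171 CPM in WT replicates 1 to 5. It had 161 CPM, 163 CPM and 172 CPM in Nipbl+/- replicates 1 to 3. The WaplΔ/+ libraries ran from 154 CPM (replicate 5) through a median of 159.6 CPM to 161 CPM, and the double-heterozygote libraries from 154 CPM through a median of 157 CPM to 165 CPM. All 13 brains with the *Wapl* deletion lay below every WT brain, and the Nipbl+/- brains overlapped WT. Means were 169 ± 2.45 CPM (SD, n = 5) in WT, 165 ± 5.82 CPM (SD, n = 3) in Nipbl+/-, 159.2 ± 2.24 CPM (SD, n = 7) in WaplΔ/+ and 158.7 ± 4.75 CPM (SD, n = 6) in double-heterozygote brains, and no neighbours in that order differed past the threshold. *Nlgn3* was lower in WaplΔ/+ brains by -0.10 on the log2 scale (standard error 0.0254, adjusted *P* = 0.0663), the smallest of the called differences in size. The double heterozygotes gave the same -0.10 to 2 decimals but with a larger standard error (0.0336), and this was not called (adjusted *P* = 0.178). DESeq2 called it (adjusted *P* = 0.0289), as did the edgeR test without replicate 5 (adjusted *P* = 0.0923). DESeq2 called 1480 genes in all and the fit without replicate 5 called 2504, beside 1001 in the main fit. Nipbl+/- brains gave -0.06 (95% interval -0.14 to 0.01, adjusted *P* = 0.367).

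**Figure D2:**
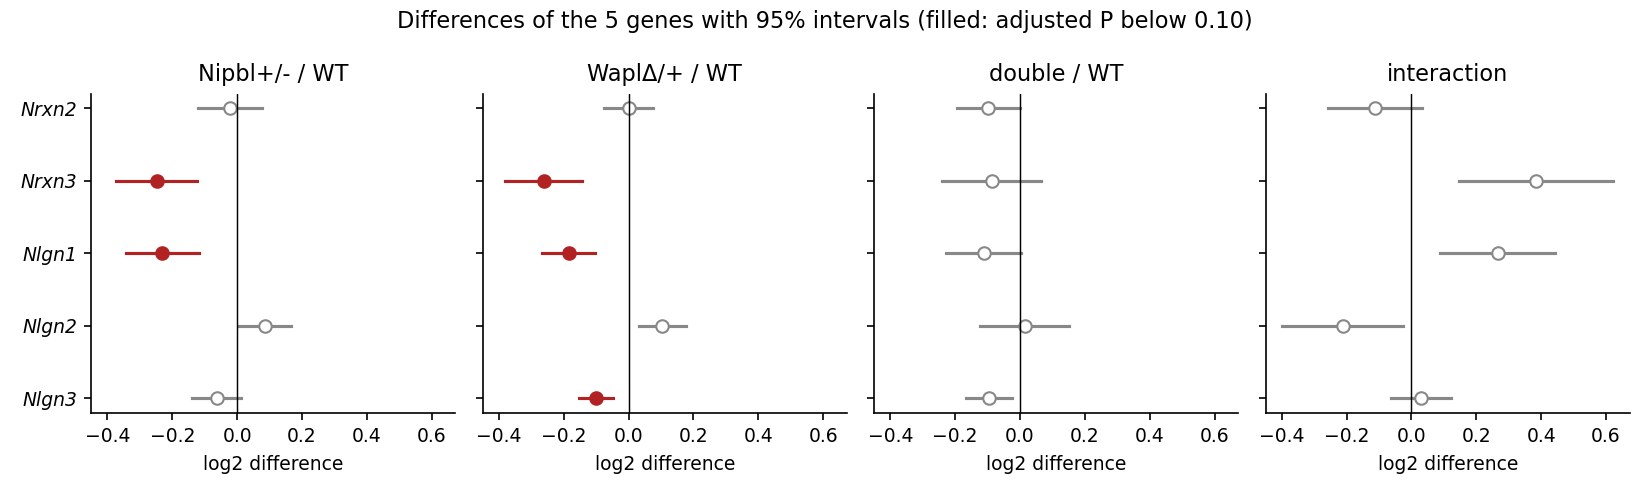
Log2 differences (horizontal axes) of the 5 genes with 95% confidence intervals, for each mutant group over WT and for the interaction of the genotypes, which is the *Nipbl* effect in brains with the *Wapl* deletion minus that in brains without it. Filled symbols passed the adjusted threshold: *Nrxn3* and *Nlgn1* in both single heterozygotes and *Nlgn3* in WaplΔ/+ brains.

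Counted over the members, 2 of 5 were called in Nipbl+/- brains, both lower, where 11.2% of all genes tested were called and 6.96% were lower. In WaplΔ/+ brains 3 of 5 were called, all lower, where 2.22% of all genes were called and 1.45% were lower. All genes tested include genes with far fewer counts than the members. Under a stricter filter on counts (filterByExpr), 19.3% of genes were called in Nipbl+/- and 3.37% in WaplΔ/+ brains. The members called under it were again 2 and 3. DESeq2 called 3 members in Nipbl+/- and 4 in WaplΔ/+ brains (11.5% and 4.65% of all genes), adding *Nlgn2*, which was higher in each. In double heterozygotes 0 of 5 were called by edgeR, where 3.28% of all genes were called (5.79% under the stricter filter). There 2 members had an unadjusted *P* below 0.05 (13.5% of all genes did), and DESeq2 called 1 (4.84% of all genes). The mutant and WT libraries did not overlap for 2 members in Nipbl+/- brains (*Nlgn1* and *Nlgn2*), where 14.7% of all genes had no overlap. Likewise 2 members did not overlap in WaplΔ/+ brains (*Nlgn1* and *Nlgn3*; 1.4% of all genes) and 1 in double heterozygotes (*Nlgn3*; 2.53% of all genes). The median log2 fold change of the members was -0.06 in Nipbl+/-, -0.10 in WaplΔ/+ and -0.10 in double-heterozygote brains, and the median of all genes tested was -0.0086, -0.0034 and 0.0007.

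How firmly these calls stood differed between genotypes. The Nipbl+/- calls of *Nrxn3* and *Nlgn1* were kept when any 1 of the 8 libraries was left out, with log2 fold changes from -0.31 to -0.16 for *Nrxn3* and from -0.29 to -0.15 for *Nlgn1*. Both were lost when all 4 groups shared 1 estimate of the spread (adjusted *P* = 0.209 and 0.113). In WaplΔ/+ brains the calls of *Nrxn3* and *Nlgn1* were each kept in 9 of 12 such fits and lost without WT replicate 1, 2 or 5. Then 13, 9 and 99 genes in all were called, so that few genes of any kind passed. The *Nlgn3* call was kept in 5 of 12 fits, and was lost without any 1 of the WT libraries or WaplΔ/+ replicate 4 or 5, while its log2 fold change stayed between -0.10 and -0.09. With 1 estimate of the spread shared by all 4 groups, all 3 WaplΔ/+ calls were lost (adjusted *P* = 0.175 for *Nrxn3*, 0.188 for *Nlgn1* and 0.198 for *Nlgn3*), and 7 genes in all were called. With the high or low *mt-Nd3* set as a covariate, the *Nlgn3* call was lost (adjusted *P* = 0.118) and those of *Nrxn3* and *Nlgn1* were kept (adjusted *P* = 0.0837 for each).

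Within the *mt-Nd3* sets the directions of the called differences held. In the low set, Nipbl+/- against WT gave -0.26 for *Nrxn3* (adjusted *P* = 0.0715) and -0.24 for *Nlgn1* (adjusted *P* = 0.0598), with 3 libraries in each group. In WaplΔ/+ brains the low set, with 2 mutant and 3 WT libraries, gave -0.28 for *Nrxn3*, -0.20 for *Nlgn1* and -0.10 for *Nlgn3*, and none was called (adjusted *P* = 0.318, 0.336 and 0.478). The high set, with 5 mutant and 2 WT libraries, gave -0.25 for *Nrxn3* (adjusted *P* = 0.0753), which was called, and -0.17 for *Nlgn1* (adjusted *P* = 0.198) and -0.10 for *Nlgn3* (adjusted *P* = 0.448), which were not.

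The mutant groups were also compared with each other. Against Nipbl+/- brains, where 0.00655% of all genes were called, double heterozygotes had 0 members called by edgeR or DESeq2. Of the members, 0 had an unadjusted *P* below 0.05 (4.12% of all genes did). *Nrxn3* gave 0.15 (95% interval -0.06 to 0.36) and *Nlgn1* gave 0.11 (95% interval -0.07 to 0.28) on the log2 scale. Against WaplΔ/+ brains, where 1.02% of all genes were called, edgeR and DESeq2 again called 0 members. An unadjusted *P* below 0.05 was found for 2 members and for 9.94% of all genes. These 2 members were *Nrxn3*, at 0.17 (95% interval 0.01 to 0.33, unadjusted *P* = 0.0344, adjusted *P* = 0.445), and *Nrxn2*, at -0.10 (95% interval -0.19 to -0.0037, unadjusted *P* = 0.0423, adjusted *P* = 0.475). Between Nipbl+/- and WaplΔ/+ brains, where 1.16% of all genes were called, 0 members were called by either tool. Again 0 members had an unadjusted *P* below 0.05 (10.3% of all genes did). The interval of the difference between single heterozygotes ran from -0.15 to 0.19 for *Nrxn3*, from -0.17 to 0.10 for *Nlgn1* and from -0.03 to 0.12 for *Nlgn3*, so the lack of a *Nlgn3* call in Nipbl+/- brains was not shown to be a difference between the genotypes.

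The interaction term asks whether the effect of the *Nipbl* mutation differed with and without the *Wapl* deletion. With edgeR, 0% of all genes were called for it, and 4221 genes had an unadjusted *P* below 0.05. *Nrxn3* gave 0.38 (standard error 0.116, unadjusted *P* = 0.00269, adjusted *P* = 0.200) and *Nlgn1* gave 0.27 (standard error 0.0864, unadjusted *P* = 0.00486, adjusted *P* = 0.204). The positive values say that double heterozygotes lay above the sum of the single effects. *Nlgn2* gave the opposite sign, -0.21 (standard error 0.0905, unadjusted *P* = 0.0268, adjusted *P* = 0.290). *Nrxn2* gave -0.11 (adjusted *P* = 0.509) and *Nlgn3* gave 0.03 (adjusted *P* = 0.842). DESeq2, which called 793 genes for the interaction, called *Nrxn3* (adjusted *P* = 0.0676) and *Nlgn1* (adjusted *P* = 0.0716). The test with edgeR called *Nrxn3* only without double-heterozygote replicate 6, at 0.44 (adjusted *P* = 0.0721). That fit called 945 genes in all (3.09%).

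Members also moved together or apart between brains of the same genotype. To describe this, each library's log2 CPM was taken relative to the mean of its group, and 15 relations over the 21 libraries were tested by 100000 permutations within groups, 10 between members and 5 with the index described next. *Nrxn3* and *Nlgn1* varied together (Pearson's *r* = 0.68, permutation *P* = 0.00758, adjusted 0.0284; Spearman's rho = 0.68, permutation *P* = 0.00462, adjusted 0.0231), and *r* was 0.68 without the 2 libraries farthest from the median of *Nrxn3*. *Nrxn2* and *Nlgn2* were also related (*r* = 0.67, permutation *P* = 0.0034, adjusted 0.017; rho = 0.53, permutation *P* = 0.0176, adjusted 0.066), with *r* = 0.55 without the 2 libraries farthest from the median of *Nrxn2*. *Nrxn3* and *Nlgn2* moved in opposite directions (*r* = -0.60, permutation *P* = 0.0189, adjusted 0.0568), but the rank correlation did not pass the threshold (rho = -0.49, permutation *P* = 0.0428, adjusted 0.128). *Nlgn3* was related to no other member, with *r* between 0.03 and 0.18. Among the 17303 genes that averaged at least 1 CPM, many followed *Nrxn3* more closely over the 21 libraries than *Nlgn1* did. The same held for *Nrxn2* and *Nlgn2*. Within groups, *r* was 0.97 for *Pakap* with *Nrxn3* and 0.96 for *Ajm1* with *Nrxn2*. The permutations had no background of other genes, so the relations were not shown to be particular to the members.

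The 2 members called in both single heterozygotes are also the 2 that span over 500 kb. A long-gene index was therefore computed for each library, as the mean log2 CPM of 207 protein-coding genes that span at least 500 kb minus that of 5995 genes that span under 20 kb, with the members left out of both. Both sets held only protein-coding genes that averaged at least 1 CPM over the 21 libraries. It ran from 0.74 to 0.84 in WT, from 0.45 to 0.64 in Nipbl+/-, from 0.51 to 0.74 in WaplΔ/+ and from 0.55 to 0.77 in double-heterozygote libraries. Of the 207 long genes, 121 were called lower and 3 higher in Nipbl+/- brains, 19 lower and 0 higher in WaplΔ/+ brains, and 48 lower and 1 higher in double heterozygotes. The shares called lower were 58.5%, 9.18% and 23.2%, against 6.96%, 1.45% and 2.46% of all genes tested, and the median log2 fold changes of the long genes were -0.20, -0.08 and -0.11. All genes tested were not held to a mean of 1 CPM, so these shares are not fully alike. Among the short genes, under the same limit as the long ones, 5.82%, 0.517% and 2.37% were called lower. Of the 5995 short genes, 349 were called lower and 556 higher in Nipbl+/- brains, 31 lower and 120 higher in WaplΔ/+ brains, and 142 lower and 95 higher in double heterozygotes. Their median log2 fold changes were 0.026, 0.043 and 0.029, above 0 where those of the long genes lay below it.

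*Nrxn3* and *Nlgn1* followed this index within groups. For *Nrxn3*, Pearson's *r* was 0.89 (permutation *P* = 3e-05, adjusted 0.00045) and Spearman's rho was 0.85 (permutation *P* = 0.0001, adjusted 0.0015), with *r* = 0.86 without the 2 libraries farthest from the median of the index. For *Nlgn1*, *r* was 0.72 (permutation *P* = 0.00205, adjusted 0.0154) and rho was 0.76 (permutation *P* = 0.00086, adjusted 0.00645), with *r* = 0.61 without those 2 libraries. The other members, which span 14.7 kb (*Nlgn2*), 22.2 kb (*Nlgn3*) and 114 kb (*Nrxn2*), did not pass. For them *r* was -0.39 for *Nlgn2* (permutation *P* = 0.104, adjusted 0.223), 0.19 for *Nlgn3* (permutation *P* = 0.482, adjusted 0.794) and -0.01 for *Nrxn2* (permutation *P* = 0.958, adjusted 0.958). With the index as a covariate, an alternative added after the data had been seen, no member was called against WT and only 5, 1 and 18 genes in all were called in the Nipbl+/-, WaplΔ/+ and double-heterozygote comparisons. The log2 fold change of *Nrxn3* was then 0.11, -0.04 and 0.20, and that of *Nlgn1* was 0.06, -0.09 and 0.04. Since the index itself is lower in the mutants, its part in the differences cannot be told apart from the genotype in these fits. The long and short genes were not matched for the cell types that express them. Whether the index follows gene span or the kind of gene was not tested.

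**Figure D3:**
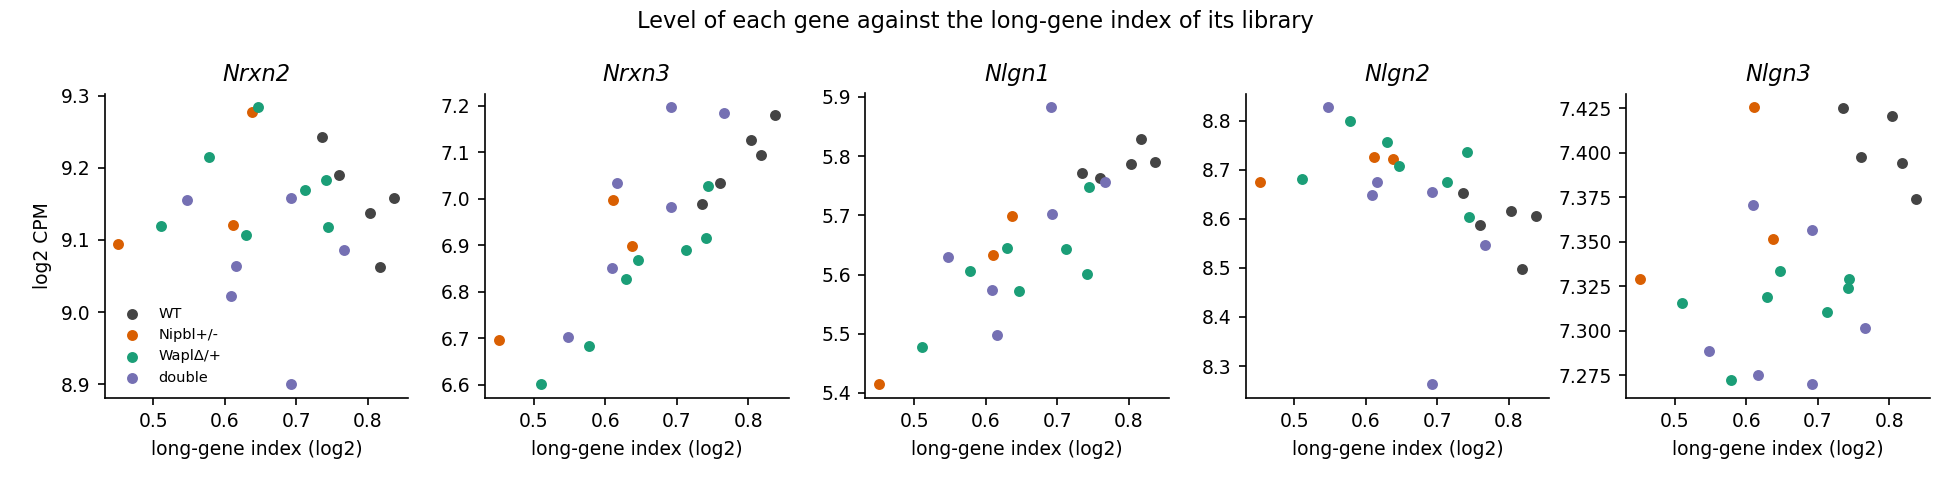
Log2 CPM of each gene (vertical axes) against the long-gene index of the same library (horizontal axes, log2), with 21 libraries coloured by genotype. *Nrxn3* and *Nlgn1* rise with the index within groups (*r* = 0.89 and 0.72 after group means are removed), and WT libraries lie between 0.74 and 0.84, a stretch that 3 mutant libraries share.

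A list of 44 other genes of the neurexin and neuroligin pathway, chosen with earlier results of these data known, was read from the same fits, and all 44 were tested. In Nipbl+/- brains 22 were lower and 2 higher, that is 54.5% of the list, with a median log2 fold change of -0.12 beside -0.0086 for all genes. In WaplΔ/+ brains 2 were lower and 1 higher, 6.82% of the list, with a median of -0.01. In double heterozygotes 12 were lower and 1 higher, 29.5% of the list, with a median of -0.09. The percentages of all genes called in these comparisons were given above for both filters, and neuronal genes as a whole were not tested as a background for the list.

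The secreted ligands that bind neurexins were the group with the largest share called in Nipbl+/- brains, 6 of 9 lower and 1 higher. The cerebellins, which bridge presynaptic neurexins to postsynaptic receptors, fell: *Cbln2* had 46.2 ± 2.24 CPM (SD, n = 3) against 55.1 ± 1.62 CPM (SD, n = 5) in WT (log2 fold change -0.28, adjusted *P* = 0.00069), *Cbln4* changed by -0.31 (adjusted *P* = 0.0021) and *Cbln1* by -0.21 (adjusted *P* = 0.0029). *Nxph2*, a neurexophilin that binds neurexins, changed by -0.61 (adjusted *P* = 0.0021), from 4.02 ± 0.271 CPM (SD, n = 5) to 2.68 ± 0.0745 CPM (SD, n = 3). Double heterozygotes had 4 of these ligands lower and 1 higher. There *Cbln2*, at 46.1 ± 2.29 CPM (SD, n = 6), changed by -0.26 (adjusted *P* = 0.0025), *Cbln4* changed by -0.19 (adjusted *P* = 0.0272), and the neurexophilin *Nxph4* rose by 0.25 (adjusted *P* = 0.0495), from 23.7 ± 1.67 CPM (SD, n = 5) to 28.2 ± 2.83 CPM (SD, n = 6). In WaplΔ/+ brains 0 of the 9 ligands were called by edgeR and 0 had an unadjusted *P* below 0.05 (15.6% of all genes did), and *Cbln2* had 55.0 ± 3.36 CPM (SD, n = 7).

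Of 8 postsynaptic membrane proteins that bind neurexins, 5 were lower in Nipbl+/- brains, 3 in double heterozygotes and 0 in WaplΔ/+ brains. In WaplΔ/+ brains 1 of the 8 had an unadjusted *P* below 0.05, beside 15.6% of all genes. *Lrrtm2*, a leucine-rich repeat protein of glutamatergic synapses, had 34.5 ± 2.17 CPM (SD, n = 5) in WT and 26.4 ± 2.88 CPM (SD, n = 3) in Nipbl+/- brains, a change of -0.42 (adjusted *P* = 0.00082). In double heterozygotes *Igsf21*, a neurexin-binding immunoglobulin protein, changed by -0.17 (adjusted *P* = 0.0568). *Mdga2*, which binds neuroligins and keeps them from neurexins, was 1 of 2 such inhibitors listed and changed by -0.30 in Nipbl+/- brains (adjusted *P* = 0.0012). It was not called elsewhere.

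Inside the cell, 4 of 7 presynaptic scaffold genes were lower in Nipbl+/- brains, 1 in double heterozygotes and 0 in WaplΔ/+ brains. In WaplΔ/+ brains 2 of the 7 had an unadjusted *P* below 0.05, beside 15.6% of all genes. The 1 in double heterozygotes was *Apba1*, an adaptor that binds the scaffold CASK, at -0.19 (adjusted *P* = 0.0206). Among 15 postsynaptic scaffold genes, 5 were lower and 1 higher in Nipbl+/- brains, 2 lower and 1 higher in WaplΔ/+ brains, and 3 lower in double heterozygotes. *Dlg2*, which encodes PSD-93, had 214 ± 10.5 CPM (SD, n = 5) in WT, 162 ± 24.4 CPM (SD, n = 3) in Nipbl+/- and 182 ± 22.5 CPM (SD, n = 7) in WaplΔ/+ brains, with log2 fold changes of -0.43 (adjusted *P* = 0.00083) and -0.25 (adjusted *P* = 0.0863). *Dlgap2* and *Dlgap4*, of a family that links the scaffolds DLG4 and SHANK, went opposite ways in WaplΔ/+ brains, by -0.57 (adjusted *P* = 0.0574) and by 0.13 (adjusted *P* = 0.0591). In double heterozygotes their relative *Dlgap1* changed by -0.26 (adjusted *P* = 0.0086) and *Homer1*, a scaffold that binds SHANK, by -0.19 (adjusted *P* = 0.0383).

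*Khdrbs3*, an RNA-binding protein that regulates the splicing of neurexin transcripts, was 1 of 3 such regulators listed. It had 125.3 ± 4.74 CPM (SD, n = 5) in WT, 102 ± 7.96 CPM (SD, n = 3) in Nipbl+/- brains, 112 ± 4.81 CPM (SD, n = 6) in double heterozygotes and 125.1 ± 3.92 CPM (SD, n = 7) in WaplΔ/+ brains. Its log2 fold change was -0.32 (adjusted *P* = 0.00038) in Nipbl+/- brains and -0.17 (adjusted *P* = 0.0408) in double heterozygotes, and neither of the other two regulators was called. Whether neurexin splicing differed was not measured, since counts were summed over genes.

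**Figure D4:**
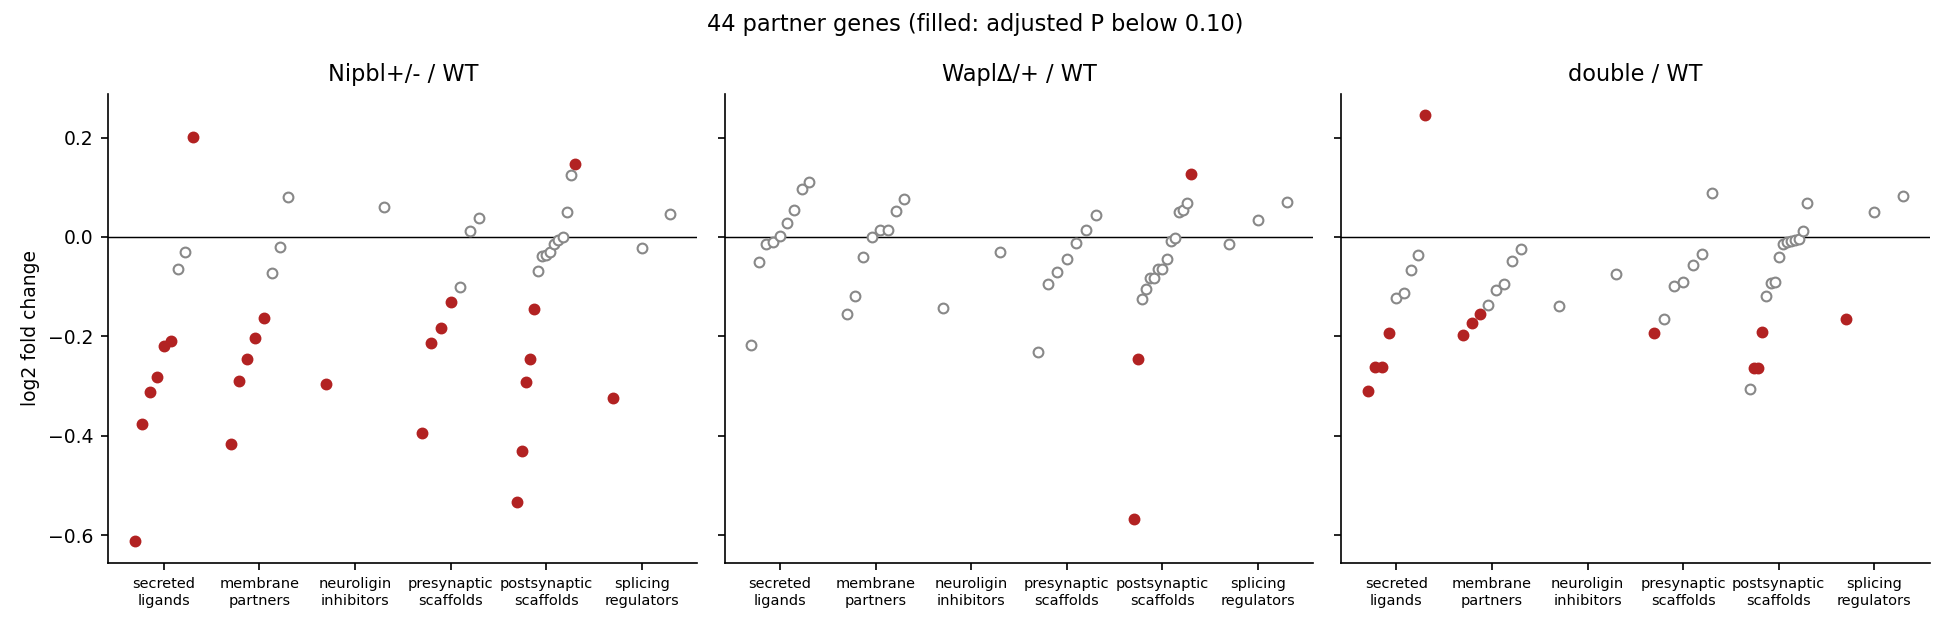
Log2 fold changes over WT (vertical axes) of the 44 partner genes by role (horizontal axes), in Nipbl+/-, WaplΔ/+ and double-heterozygote brains. Filled points passed the adjusted threshold, 24, 3 and 13 of the 44 in turn, and most of the filled points lie below 0.

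Summed markers of neurons overlapped between WT and each mutant genotype. The 8 neuronal markers together had 5790 to 5969 CPM in WT, 5493 to 5873 CPM in Nipbl+/-, 5575 to 5874 CPM in WaplΔ/+ and 5618 to 6367 CPM in double-heterozygote libraries, and 0 of the 8 were at 0 in any library. In double heterozygotes 5 of 6 libraries, at 5618 to 5647 CPM, lay under every WT library, and replicate 5, at 6367 CPM, lay above them. The 4 GABAergic markers together had 497 to 544 CPM in Nipbl+/- and 475 to 491 CPM in WT libraries, which did not overlap. Of the 8 neuronal markers, 3 of 8 were lower in Nipbl+/- brains, 0 in WaplΔ/+ brains and 1 in double heterozygotes. Of all genes tested, 6.96%, 1.45% and 2.46% were called lower in these comparisons. In Nipbl+/- brains, 3 of 7 progenitor markers were higher, and 2 of 4 astrocyte, 3 of 5 oligodendrocyte-lineage and 3 of 5 microglial markers were lower. There 4.25% of all genes tested were called higher. The summed oligodendrocyte-lineage markers, at 153 to 189.7 CPM in Nipbl+/- and 198 to 219.6 CPM in WT libraries, did not overlap. Nor did the summed microglial markers, at 50.1 to 58.2 CPM in Nipbl+/- and 58.9 to 71.7 CPM in WT libraries. Taken singly, 14.7% of all genes tested did not overlap between Nipbl+/- and WT libraries. In double heterozygotes 4 of 5 oligodendrocyte-lineage, 2 of 4 astrocyte and 1 of 5 microglial markers were lower, and the summed oligodendrocyte-lineage markers, at 154 to 186 CPM, lay under every WT library. Taken singly, 2.53% of all genes tested did not overlap between double-heterozygote and WT libraries. In WaplΔ/+ brains 0 astrocyte, oligodendrocyte-lineage or microglial markers were called, while 2 of 5 meningeal markers and 1 of 4 endothelial markers were higher. Of all genes tested, 0.769% were called higher in WaplΔ/+ brains. There the log2 fold changes of the 4 astrocyte markers ran from -0.78 to -0.14. The medians of the oligodendrocyte-lineage and microglial markers were -0.01 and 0.05. Summed astrocyte markers had 262 to 284 CPM in WT and 211 to 271 CPM in WaplΔ/+ libraries (medians 277 and 232). In Nipbl+/- and double-heterozygote libraries they had 218 to 263 CPM and 214 to 269 CPM. Of 3 pituitary markers, 1 was called lower in WaplΔ/+ brains. Summed, the pituitary markers had 83.3 CPM in WT replicate 2 and 0.69 to 1.19 CPM in the other WT libraries. They had 1.01 to 2.12 CPM in WaplΔ/+ libraries, and 9.70 CPM and 36.5 CPM in double-heterozygote replicates 5 and 6. The part of these cell types in the levels of the neurexins and neuroligins was not tested.

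The genes whose levels followed each member most closely over the 21 libraries were taken from the 17303 genes that averaged at least 1 CPM, by Pearson's *r* of log2 CPM, given as a description. They were *Pakap* (*r* = 0.97), *Gm42609* (0.97) and *Ank2* (0.96) for *Nrxn3*, *Ankib1* (0.93), *Btg3* (0.91) and *Dpp8* (0.90) for *Nlgn1*, and *Ajm1* (0.96), *Adgrb2* (0.95) and *Dagla* (0.95) for *Nrxn2*. For *Nlgn2* they were *Prr36* (0.96), *Prr12* (0.96) and *Setd1b* (0.96). For these 4 members the *r* within groups was at least 0.84. *Nlgn3* had no such close match. Its highest were *Wapl* itself (0.75), *Gm2824* (0.73) and *Dnah2* (0.72), and within groups they fell to -0.11, 0.29 and 0.48, so the match with *Wapl* came from the levels of the groups and was absent among brains of 1 genotype.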

How the data were processed

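Total RNA from snap-frozen whole brains (integrity number above 9) was selected with oligo(dT), prepared with an Illumina RNA Sample Prep V2 kit and sequenced as paired 101-bp reads. The authors trimmed reads with cutadapt 2.4, mapped them to GRCm38 with STAR 2.5.3a, counted them with featureCounts of Subread 1.6.4, and deposited raw counts. Which annotation and strand setting were used, and what became of reads that match more than 1 gene, is not stated, so reads shared by related genes may be lost or split. A Nipbl+/- library that the authors excluded was not analysed here. Groups came from the sample labels.

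The fits used edgeR 4.0.16 (TMM, quasi-likelihood test) under R 4.3.3, on genes whose normalized counts over the 21 libraries came to 10 or more. DESeq2 1.42.0 was an alternative. Log2 CPM used a prior count of 2. Code was tested on simulated counts. Gene spans came from a RefSeq table for GRCm38.p6, and figures were drawn with matplotlib 3.10.9. Each member had at least 1249 counts in every library. In WT, counting error alone gives a coefficient of variation of 2.36% for *Nlgn1* and 1.35% for *Nlgn3*, about as large as the spread between libraries (1.75% and 1.45%).

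The members, the partner and marker lists and the tests were chosen with earlier results of these data known. The genes named are the members, *Wapl*, *Nipbl*, *mt-Nd3*, the called partners (the 8 with the smallest *P* where more were called) and the 3 genes most like each member. Overlapping genes were named for their position. Alternatives were a threshold of 0.05, DESeq2, its size factors, other filters, one fit of all groups, a replicate block, subsets by *mt-Nd3* set or by which *Wapl* allele the labels write first, leaving out each library, and the long-gene index.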

Additional observations from a re-analysis of the deposited data

Results flagged for a closer look

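*Nlgn3* in WaplΔ/+ replicate 5, at 154.5 CPM, lay apart from the other 6 libraries of its group, the nearest of which had 158.7 CPM. The gap was 0.619 of the range of the group, above the critical value of 0.568 for 7 libraries. It was the only such library among 24 sets tested (the members, *Wapl*, *Nipbl* and the long-gene index in the groups of 5, 6 and 7), and chance flags about 1 set in 20. Without it the *Nlgn3* difference from WT was not called.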

How the results depend on the processing

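Of 111 alternative values of the 5 called differences, 79 kept their direction and their call, 30 kept their direction but not the call, and 2 changed sign. Of 729 values of the 30 other differences, 12 became called and 59 changed sign.

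Members called against WT numbered 2 in Nipbl+/-, 3 in WaplΔ/+ and 0 in double-heterozygote brains. With one fit of all 4 groups, the first 2 counts were 0 and 0 (5.43% and 0.0229% of all genes were called). They were also 0 and 0 with the long-gene index (0.0164% and 0.00327% of all genes). With DESeq2 they were 3 and 4 (11.5% and 4.65% of all genes). In WaplΔ/+ brains the count was 0 in the low and 1 in the high *mt-Nd3* set (0.154% and 0.91% of all genes). It was 0 to 4 when a library was left out (0.0295% to 5.02% of all genes). It was 1 where the labels write the deletion first and 4 where they write it second (3.24% and 4.26% of all genes). In double heterozygotes it was 1 with DESeq2 (4.84% of all genes) and 1 with the deletion first (5.94%). There it was 0 to 2 when a library was left out (1.49% to 8.2% of all genes). For the interaction it was 2 with DESeq2 (2.6% of all genes) and 0 to 1 when a library was left out (0% to 3.09%). With the index, 1 member (*Nrxn3*, 0.17) was called between double-heterozygote and WaplΔ/+ brains, as were 1.99% of all genes.

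The share of all genes called in the same fit is given in brackets after each count of partners below. Partners called in Nipbl+/- brains, 24 in the main fit, were 15 with all 4 groups (5.43%) and 0 with the index (0.0164%). They were 19 to 25 when a library was left out (5.98% to 15.7%). In WaplΔ/+ brains, with 3 in the main fit, they were 0 at a threshold of 0.05 (0.592%), 8 with DESeq2 (4.65%) and 0 with all 4 groups (0.0229%). They were 0 with the *mt-Nd3* set as a covariate (0.998%), 0 in the low (0.154%) and 1 in the high set (0.91%). With the deletion first they were 5 (3.24%), with the index 0 (0.00327%), and 0 to 5 when a library was left out (0.0295% to 5.02%). In double heterozygotes, with 13 in the main fit, they were 7 at 0.05 (1.79%) and 0 in the high set (0.00327%). They were 5 with the deletion second (2.84%), 0 with the index (0.0589%), and 5 to 19 when a library was left out (1.49% to 8.2%).

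Libraries of the same replicate number deviated together in some pairs only (*r* above 0.1 in 7 of 25 pairs, range -0.21 to 0.37). The highest values lay between replicates 1 of the mutant groups. They were 0.37 for Nipbl+/- with WaplΔ/+, 0.30 for WaplΔ/+ with double heterozygotes and 0.23 for Nipbl+/- with double heterozygotes. Pairs of unlike number were not examined, so whether the numbers pair libraries was not settled. With the replicate block, partners called were 9 in WaplΔ/+ brains (6.53% of all genes) and 6 in double-heterozygote brains (2.04%). The members' counts did not change. Under the block the signs of *Nrxn2* in WaplΔ/+ (-0.028), *Nlgn2* in double heterozygotes (-0.042), and *Nrxn2* (0.029) and *Nlgn2* (0.054) between single heterozygotes changed.

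Other changes of sign were these. *Nrxn2* in Nipbl+/- brains was 0.0076 with all 4 groups, 0.0496 with the index and -0.081 to 0.018 when a library was left out. In WaplΔ/+ brains it was -0.0014 with DESeq2 and with its size factors, -0.0016 without a filter, -0.00604 with filterByExpr, -0.014 with the *mt-Nd3* covariate, -0.058 in the low set, -0.0598 with the deletion first, -0.011 with the index and -0.024 to 0.021 when a library was left out. *Nrxn3* and *Nlgn1* changed sign with the index in Nipbl+/- brains (0.11 and 0.056), in double heterozygotes against WT (0.20 and 0.036) and against Nipbl+/- (-0.021 and -0.0077), and so did *Nlgn1* between single heterozygotes (0.048) and the *Nrxn3* interaction (-0.00047). *Nlgn2* in double heterozygotes against WT was -0.029 in the high set, -0.0202 with the deletion second, -0.15 with the index and -0.036 to 0.074 when a library was left out. Between double heterozygotes and WaplΔ/+, *Nlgn2* was 0.00029 in the low set and with the deletion first, and *Nlgn3* was -0.00413 with all 4 groups, -0.0085 with the covariate, -0.038 in the high set and with the deletion second, and -0.0078 to 0.014 when a library was left out. Between single heterozygotes, *Nrxn2* was 0.044 with the covariate, 0.045 in the low set and with the deletion first, 0.012 with the index and -0.069 to 0.023 when a library was left out, and *Nlgn2* was 0.0604 with the covariate, 0.061 in the low set and with the deletion first, and -0.025 to 0.0082 when a library was left out. There *Nrxn3* ran from -0.042 to 0.10 and *Nlgn1* from -0.093 to 0.045 when a library was left out. The cause of these changes was not tested.

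With 3 libraries, the Nipbl+/- group limits the precision, and all 3 lie in the low *mt-Nd3* set, so no value exists for it in the high set. No GC content was available for a correction.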
